A study of Caenorhabditis elegans with 6 samples.

Results

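The genes described here encode the contractile apparatus of the body wall muscle of Caenorhabditis elegans, and they were chosen by name: 38 symbols for proteins of the filaments, their attachments and the calcium supply. Of these, 37 had at least 1 probe set on the array that carried that symbol alone, 82 probe sets in all out of the 22548 tested. The actin gene act-1 was dropped because its 3 probe sets also name other genes. Each gene is represented by its probe set with the highest mean intensity.

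RNA was measured on Affymetrix arrays in 2 genotypes, an ung-1 mutant (3 arrays) and wild type N2 (3 arrays), labelled as biological replicates. The gene ung-1 encodes the uracil-DNA glycosylase that starts the repair of uracil in DNA. The labels give no allele, stage, treatment or tissue, and the design text calls the mutants RNAi mutants. Nothing says that the replicates came from separate cultures, so the p-values measure the spread between these samples, which may be technical. Values are intensities in arbitrary units, and each log2 fold change is the mutant mean minus the N2 mean of log2(intensity + 16), which understates the change of dim probe sets.

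A sarcomere is the repeating unit of striated muscle, in which myosin thick filaments slide along actin thin filaments. In the worm the thick filaments are held at the M-line and the thin filaments at dense bodies, and both structures are anchored through integrins to the basement membrane next to the muscle cell. Calcium entering the cytoplasm binds troponin on the thin filament and lets myosin pull. Many of these genes were found through paralysed (unc) mutants or through embryos that arrest paralysed midway through elongation (pat).

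Median intensity ranged from 152.82 to 160.985 over the mutant arrays, against 158.315 to 167.85 over the N2 arrays. The ung-1 probe set read 54.9, 55.3 and 47.7 in mutant replicates 1, 2 and 3, against 236, 254 and 296 in N2 replicates 1, 2 and 3, and the groups did not overlap. Where that probe set lies relative to the lesion is unknown here, as is whether it reads other transcripts. Of the 5 body wall muscle markers, 4 are themselves sarcomere genes, with probe set means of 586 or more, and the last, the muscle-fate transcription factor gene hlh-1, averaged 49.2. The distance of such dim probe sets from background is unknown. In RNA of this kind, fewer muscle cells and less RNA per muscle cell cannot be told apart.

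None of the 37 sarcomere genes passed the threshold, an adjusted p of 0.05 in limma over all probe sets, and none reached an unadjusted p of 0.05. Over all 22548 probe sets, limma called 0, which is 0%, and 1.93% had an unadjusted p under 0.05. The ung-1 probe set itself, with a fold change of -2.01 (SE 0.15), had a limma adjusted p of 0.0765 and did not pass. For no sarcomere gene did all 3 mutant arrays lie on one side of all 3 N2 arrays. Of all probe sets 6.69% did so (2.31% with the mutant higher, 4.38% with it lower). With 1 probe set a gene the share was 6.41%. Of the 8842 genes at least as bright as the dimmest of the 37, 405 did so. The limma adjusted p was 0.999 or above for each member. With 3 arrays against 3, no exact permutation test of a single gene can give a p below 0.1.

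The fold changes were spread around 0, with 20 positive and 17 negative. They ran from -0.58 for the troponin I gene tni-3 to 0.59 for the alpha-actinin gene atn-1, with a median of 0.025. The median over all probe sets was -0.027. The median of the sarcomere genes depended on single arrays: leaving out mutant replicate 1, 2 or 3 gave 0.24, -0.069 or -0.071, and leaving out N2 replicate 1, 2 or 3 gave 0.31, -0.099 or 0.019. For 29 of the 37 genes the change was smaller than its own standard error.

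How large a difference these arrays could have hidden varied from gene to gene. For 20 genes the 95% confidence interval of the fold change lay within a 2-fold change in either direction. For the remaining 17 it reached beyond 2-fold on at least one side. The narrowest estimates were those of the M-line gene unc-96 (SE 0.15) and the actin gene act-4 (SE 0.16). Those of unc-112 (SE 0.16) and the essential light chain gene mlc-3 (SE 0.16) followed. The widest was that of the twitchin gene unc-22 (SE 0.75). These hold for the brightest probe sets. A dimmer probe set had an SE of 0.22 for unc-112, 0.53 for mlc-3 and 0.16 for unc-22.

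**Figure D1:**
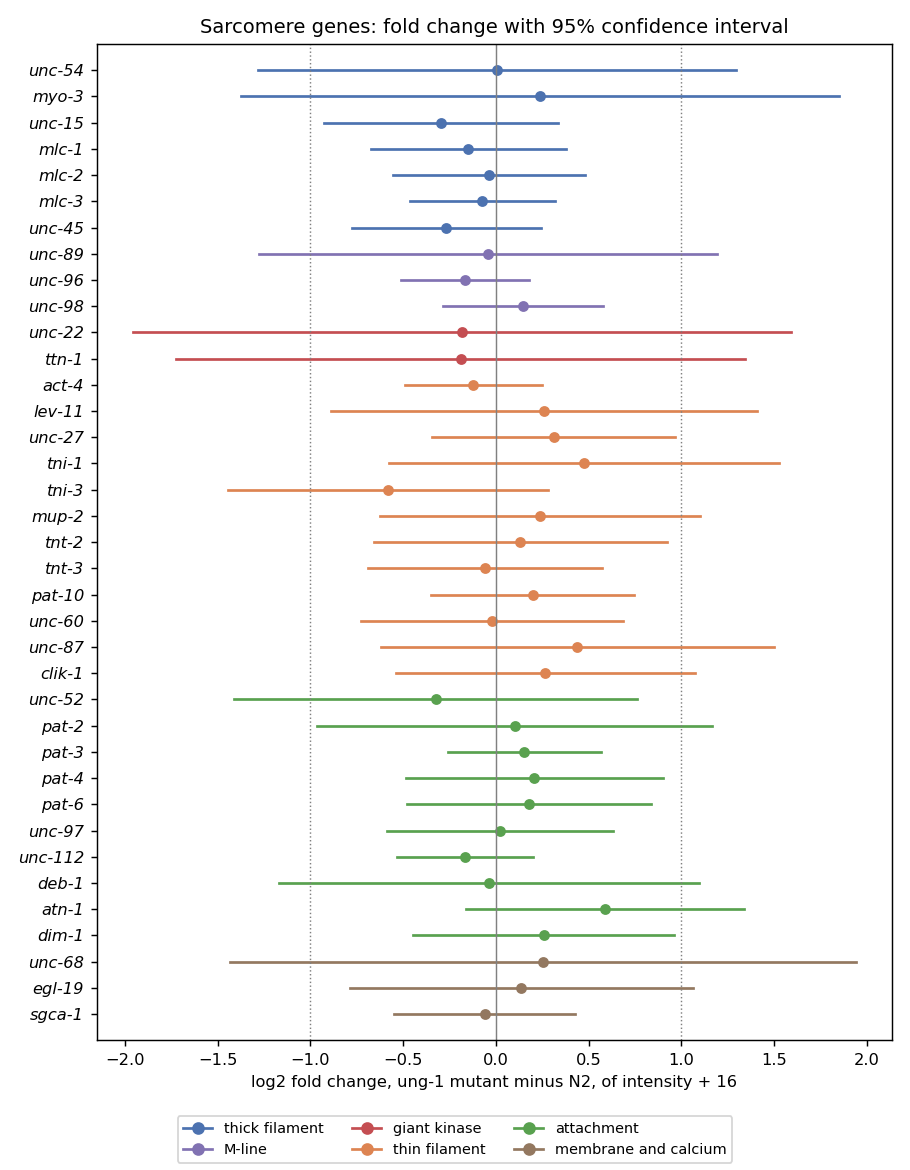
Log2 fold change (ung-1 mutant minus N2, on log2(intensity + 16)) of the 37 sarcomere genes, with points for the limma estimate, bars for its 95% confidence interval (n = 3 arrays a group) and colours for the role. Dotted lines mark a 2-fold change, and the intervals of 20 genes lie between them while those of 17 cross at least one.

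The thick filament is built of myosin heavy chains, light chains and a paramyosin core, and its 7 genes had fold changes between -0.29 and 0.24, 2 positive and 5 negative. The major heavy chain gene unc-54 read 209.8, 1054 and 645 in mutant replicates 1, 2 and 3, against 637, 394 and 574 in N2 replicates 1, 2 and 3. The other body wall heavy chain gene, myo-3, whose product occupies the filament centre, read 368, 1738 and 1131 in the mutant and 1339, 337 and 966 in N2. Both genes were lowest or nearly so in mutant replicate 1 and highest in mutant replicate 2, and the N2 arrays lay inside the mutant range for unc-54. The fold change was 0.0058 (SE 0.54) for unc-54 and 0.24 (SE 0.68) for myo-3, with 95% confidence intervals of -1.28 to 1.30 and -1.37 to 1.85.

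The remaining thick filament genes were steadier on their brightest probe sets. Paramyosin, from unc-15, read 3569, 6132 and 5116 in the mutant and 7809.6, 4897 and 5418 in N2, a fold change of -0.29 (SE 0.27). The dimmest unc-15 probe set ranged 3.92-fold among mutant arrays and gave 0.019 (SE 0.52). The essential light chain gene mlc-3 read 8700.3, 8327 and 8066 in the mutant, against 10424, 8620.5 and 7556 in N2. Its interval, -0.46 to 0.32, was among the narrowest of the 37, and the 3 mutant values fell inside the range of the N2 values. The dimmer mlc-3 probe set (mean 713) gave 0.073 (SE 0.53). It ranged 3.98-fold among N2 arrays and 2.42-fold among mutant arrays. The regulatory light chain genes mlc-1 and mlc-2 had fold changes of -0.15 (SE 0.22) and -0.037 (SE 0.22). These genes encode near-identical proteins, and the probe sets of mlc-2 are of the kind that can match several transcripts, so signal may be shared. The dimmer of the mlc-2 probe sets gave 0.28 (SE 0.53), a sign opposite to that of the brighter one.

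UNC-45 is the chaperone that folds myosin heads, and its gene ran against the heavy chains on single arrays. It read 639, 405 and 524 in the mutant, against 531, 732 and 617 in N2. Its lowest value was in mutant replicate 2, where unc-54 and myo-3 were highest. The fold change was -0.27 (SE 0.21, 95% confidence interval -0.77 to 0.24), and limma gave an unadjusted p of 0.253.

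At the M-line, the obscurin gene unc-89, which encodes a giant kinase that organises the thick filaments, read 484, 764 and 1072 in the mutant and 1363, 343 and 923 in N2. The highest and the lowest of these 6 values were both from N2. Its fold change was -0.044 (SE 0.52). The partner genes unc-96 and unc-98, whose products bind each other and link integrin-associated proteins to the thick filament, had -0.17 (SE 0.15) and 0.15 (SE 0.18).

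The giant kinases twitchin (unc-22) and the titin-like TTN-1 (ttn-1) work as springs and regulators along the filaments. The unc-22 probe set read 221, 383 and 390.5 in mutant replicates 1, 2 and 3, against 952, 94.3 and 513 in N2 replicates 1, 2 and 3. The ttn-1 probe set read 587, 920.5 and 1380.0 in the mutant, against 2271, 372 and 1302 in N2. On both of these probe sets N2 replicate 1 was the highest and N2 replicate 2 the lowest of all 6 arrays. The whole mutant group thus lay within the spread of N2. The ratio of the highest to the lowest N2 array was 10.1 for unc-22 and 6.10 for ttn-1. The fold changes, -0.18 (SE 0.75) and -0.19 (SE 0.65), were small beside that spread. The dimmer unc-22 probe set (mean 77.9) had a ratio of only 1.29 among N2 arrays and was lowest in mutant replicate 1.

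**Figure D2:**
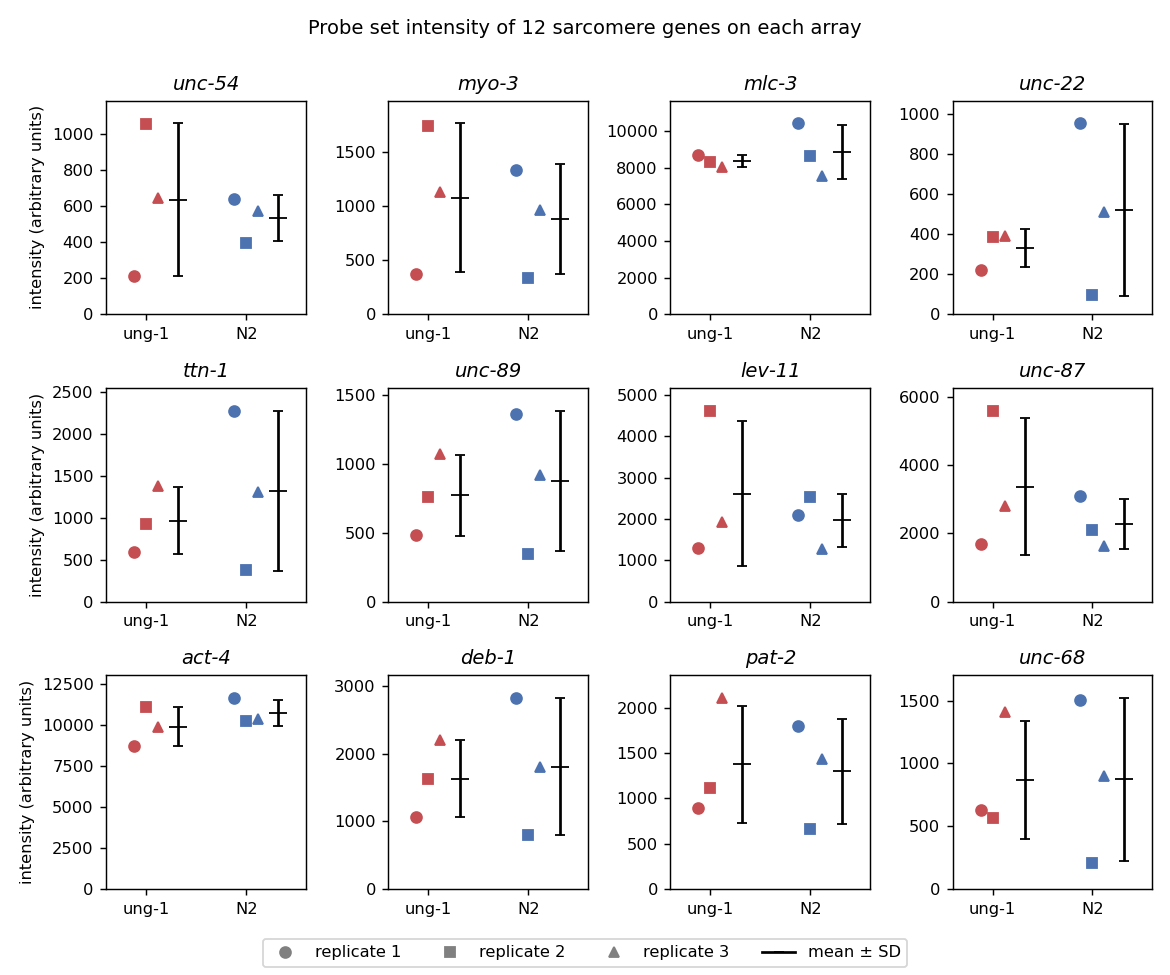
Intensity (arbitrary units, linear axis from 0) of 12 sarcomere genes, with mutant arrays in red on the left and N2 arrays in blue on the right of each panel, marker shape for the replicate and black bars for mean ± SD (n = 3). In the probe sets shown for unc-22 and ttn-1 the N2 replicates 1 and 2 enclose all 3 mutant arrays, while those shown for act-4 and mlc-3 vary little.

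The thin filament holds actin, tropomyosin, the troponin complex and actin-binding proteins. Its 12 measured genes had fold changes between -0.58 and 0.48, with 8 positive, 4 negative and a median of 0.22. The actin gene act-4 was the least variable of them, at 8725, 11128 and 9886 in the mutant and 11655, 10228 and 10368 in N2 (fold change -0.12, SE 0.16). Worm actin genes are nearly identical in sequence, so part of this signal may come from the others.

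Tropomyosin (lev-11) covers the myosin binding sites on actin at rest. Its brightest probe set read 1304, 4616 and 1921 in the mutant, against 2106, 2528 and 1263 in N2. Mutant replicate 2 stood well above the other 5 arrays, and the rest overlapped. The fold change was 0.26 (SE 0.48). The calponin-related bundling protein gene unc-87 behaved alike, at 1697, 5592 and 2791 in the mutant and 3084, 2105 and 1632 in N2 (fold change 0.44, SE 0.45). The calponin-like gene clik-1 read 2953, 4795 and 2299 in the mutant, against 3769.6, 2525 and 1959 in N2, and had 0.27 (SE 0.34).

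Troponin has a calcium sensor (C), an inhibitory subunit (I) and a tropomyosin-binding subunit (T). The body wall troponin C gene pat-10 read 7604, 9361 and 7683 in the mutant and 8289.7, 8487 and 5143 in N2, a fold change of 0.20 (SE 0.23). Of the troponin I genes, unc-27 read 1504, 2671 and 1417 in the mutant, against 1668, 1491 and 1189 in N2 (0.31, SE 0.28). The related tni-1 read 784, 1115 and 868.0 in the mutant, against 1245, 330.0 and 667 in N2 (0.48, SE 0.44). The mutant arrays of tni-1 lay inside the N2 range.

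The third troponin I gene, tni-3, had the most negative change of the 37, at -0.58 (SE 0.36, 95% confidence interval -1.45 to 0.28, unadjusted limma p 0.155). It read 199.9, 310.1 and 169 in the mutant, against 378, 502 and 198 in N2. Mutant replicates 1 and 2 lay above N2 replicate 3, so the groups overlapped. The dimmer probe set of tni-3 gave -0.30 (SE 0.37), also negative. Among the troponin T genes, mup-2 had 0.24 (SE 0.36), tnt-2 had 0.13 (SE 0.33) and tnt-3 had -0.058 (SE 0.27). The ADF/cofilin gene unc-60, whose products sever actin filaments, had -0.020 (SE 0.30).

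The attachment genes encode the chain from basement membrane to filament: perlecan outside the cell, integrin across the membrane, and the adaptors that connect it to dense bodies and M-lines. Of the 10, 7 had positive and 3 negative fold changes, from -0.33 for the perlecan gene unc-52 to 0.59 for atn-1, with a median of 0.13. The gene atn-1 encodes alpha-actinin, which cross-links thin filaments at dense bodies. It read 845, 995 and 1361 in the mutant and 840.2, 435 and 898 in N2. Only mutant replicate 1 fell below N2 replicate 3, and the low value of N2 replicate 2 held the N2 mean down. The interval was -0.16 to 1.34 (SE 0.32, unadjusted limma p 0.106), and without N2 replicate 2 the fold change was 0.26.

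The brightest probe sets of the integrin subunits differed in how they varied. The beta subunit gene pat-3 read 1981, 1487 and 1934 in the mutant and 1439, 1769 and 1619 in N2 (0.15, SE 0.17). The alpha subunit gene pat-2 read 897, 1119 and 2109 in the mutant, against 1804, 660.2 and 1432 in N2 (0.10, SE 0.45). On these probe sets beta integrin stayed within a 1.33-fold range among mutant arrays and 1.23-fold among N2 arrays. Alpha integrin ranged 2.35-fold and 2.73-fold. The dimmer pat-2 probe set (mean 151) ranged only 1.22-fold among mutant arrays and 1.41-fold among N2 arrays. For the dimmer pat-3 probe set the ranges were 1.23-fold and 1.02-fold. The 2 subunits form 1 receptor, but their brightest probe sets did not share an array order. The dimmer pat-3 probe set was highest in mutant replicate 3, as were both pat-2 probe sets.

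Inside the cell, the vinculin gene deb-1 read 1066, 1621 and 2211 in the mutant and 2827, 805 and 1806 in N2, a fold change of -0.036 (SE 0.48). N2 replicates 1 and 2 again enclosed the mutant arrays. The integrin-linked kinase gene pat-4, the parvin gene pat-6 and the PINCH gene unc-97, whose products form a complex on the integrin tail, had 0.21 (SE 0.29), 0.18 (SE 0.28) and 0.025 (SE 0.26). The kindlin gene unc-112 had -0.17 (SE 0.16) and the immunoglobulin domain gene dim-1 had 0.26 (SE 0.30). The dimmer unc-112 probe set had the opposite sign, at 0.41 (SE 0.22). Perlecan, from unc-52, read 148, 197 and 348 in the mutant and 402, 137 and 373 in N2.

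Of the membrane and calcium genes, unc-68 encodes the ryanodine receptor that releases calcium from the sarcoplasmic reticulum. It read 627, 566 and 1414 in the mutant, against 1507, 209.7 and 901 in N2, and had a fold change of 0.25 (SE 0.71). The highest N2 array was 7.18 times the lowest. The L-type calcium channel gene egl-19, which carries the muscle action potential, read 356, 422 and 611 in the mutant, against 665, 229 and 443 in N2 (0.14, SE 0.39). The alpha sarcoglycan gene sgca-1 had -0.060 (SE 0.21).

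Replicates of the same genotype lay far apart in many of these genes. The within-group standard deviation on the log2 scale had a median of 0.43 over the 37 genes and 0.25 over all probe sets. It was 0.35 over the 8842 genes at least as bright as the dimmest of the 37. The highest mutant array exceeded the lowest by more than 2-fold in 15 of the 37 (40.5%), against 29.5% of those brighter genes. In N2 this held for 16 of the 37 (43.2%), against 20.4% of the brighter genes. These shares are a description and were not tested, since genes on 1 array share its RNA.

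The arrays that set this spread differed between the roles. Thin filament genes were highest in mutant replicate 2 (8 of 12) and lowest in N2 replicate 3 (7 of 12). Attachment genes were highest in mutant replicate 3 or N2 replicate 1 (4 of 10 each) and lowest in N2 replicate 2 (8 of 10). Both giant kinase genes and 2 of the 3 membrane and calcium genes were highest in N2 replicate 1 and lowest in N2 replicate 2. Among all 17118 genes, N2 replicate 2 was the lowest array for 14.3% and the highest for 33.2%, and for 15 and 2 of the 37 sarcomere genes. Mutant replicate 2 was the highest array for 14.5% of all genes and for 10 of the 37. N2 replicate 1 was highest for 9.58% of all genes and for 16 of the 37. N2 replicate 3 was lowest for 10.4% of all genes and for 10 of the 37. For mutant replicate 3 as the highest array the figures were 17.6% and 7.

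Relative to each gene's mean over the 6 arrays, the attachment genes had medians of -0.13, -0.15 and 0.46 in mutant replicates 1, 2 and 3, against 0.34, -0.70 and 0.12 in N2 replicates 1, 2 and 3. The thin filament genes had -0.16, 0.58 and -0.081 in the mutant and 0.22, -0.027 and -0.48 in N2. In the mutant, the thin filament median was highest in replicate 2. The attachment medians of mutant replicates 1 and 2 were close, and replicate 2 was the lowest array for 0 of the 10 attachment genes. In N2 both roles were highest in replicate 1 but lowest in different arrays. The thick filament medians, -0.20, 0.16 and -0.062 in the mutant and 0.28, -0.041 and 0.021 in N2, moved less. Over all genes the array medians stayed between -0.067 and 0.085.

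**Figure D3:**
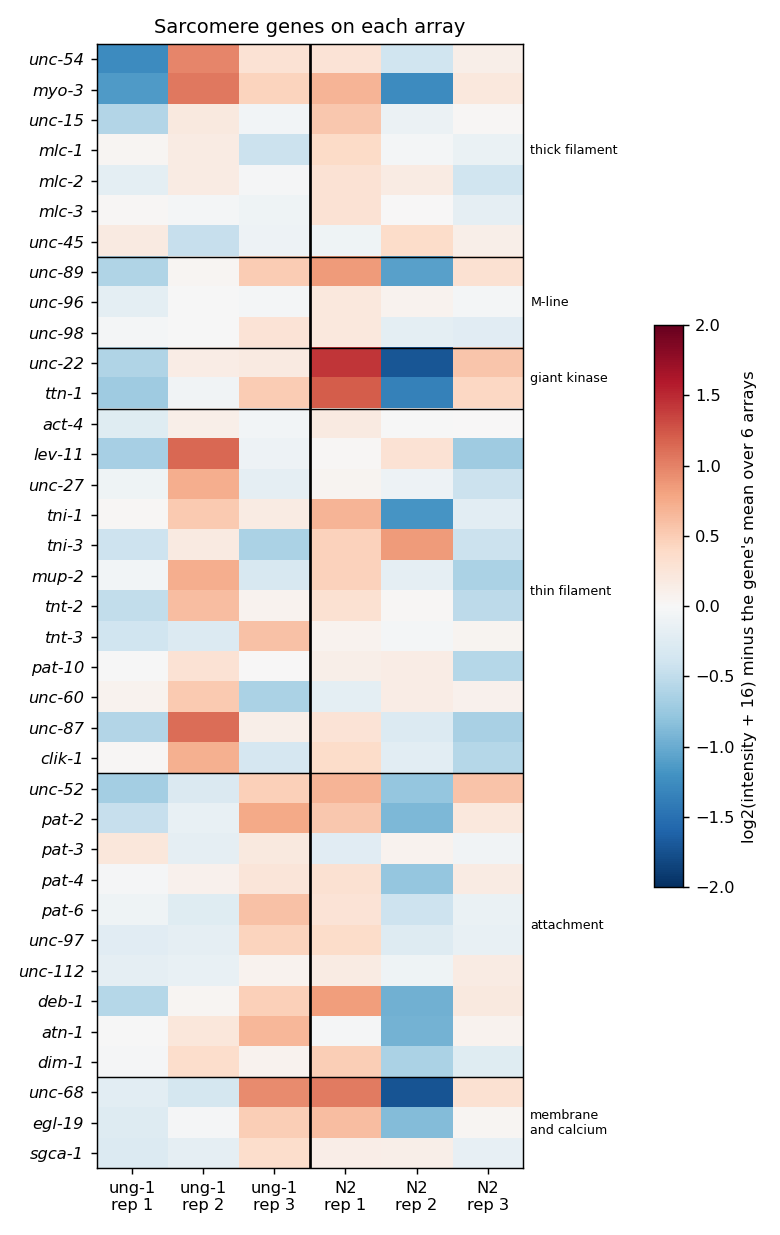
Heat map of the 37 sarcomere genes (rows, by role) on the 6 arrays (columns, mutant left, N2 right), with colour for log2(intensity + 16) minus the gene's mean over the arrays. The thin filament genes are reddest in mutant replicate 2, and the giant kinase, attachment and membrane genes are bluest in N2 replicate 2.

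**Figure D4:**
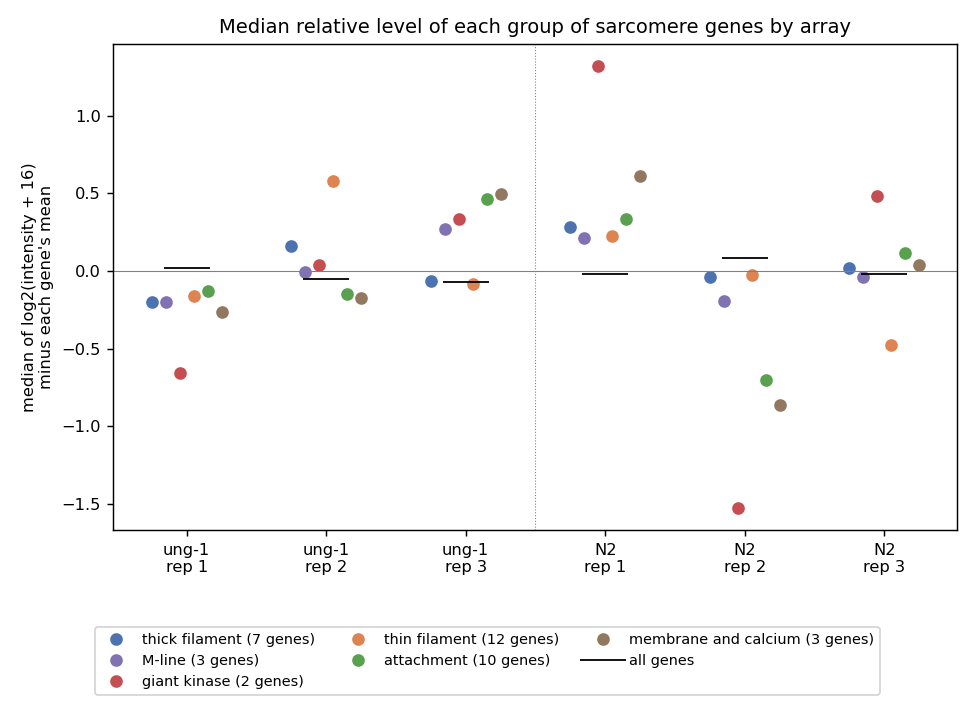
Median over the genes of each role of log2(intensity + 16) minus each gene's mean, by array, with black dashes for all genes. In N2 replicate 2 the attachment genes stand at -0.70 and the thin filament genes at -0.027, and in mutant replicate 2 the attachment genes stand at -0.15 and the thin filament genes at 0.58.

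Signs of RNA quality and markers of other cell types also varied between the 6 arrays. Control probe sets at the 3' and 5' ends of a transcript give a ratio that grows as RNA is degraded or copied incompletely. The 3' over 5' ratio was 4.44, 2.89 and 3.13 for actin in mutant replicates 1, 2 and 3, against 3.72, 5.23 and 4.63 in N2 replicates 1, 2 and 3. For GAPDH it was 8.77, 5.01 and 6.08 in the mutant, against 11.8, 8.30 and 10.6 in N2. Mutant replicate 2 thus had the lowest ratio of the 6 arrays. It was also lowest, narrowly, for the ubiquitin and catalase controls (3.95 and 25.9, against 3.97 and 26.2 in mutant replicate 1). The mean ratio was higher in N2 than in the mutant for every control, with overlapping arrays in each. It was 4.53 against 3.49 for actin, 10.2 against 6.62 for GAPDH, 4.92 against 4.11 for ubiquitin and 29.3 against 28.1 for catalase. N2 replicate 2 had the highest ratio for actin and for ubiquitin (5.32), and not for GAPDH or catalase (28.3). The part of RNA quality in the sarcomere values was not tested.

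Summed intensity of the 5 pharyngeal muscle markers, which include myo-1 and myo-2, was 942, 986 and 910.0 in mutant replicates 1, 2 and 3. In N2 replicates 1, 2 and 3 it was 1338, 1183 and 1003, so that all mutant arrays lay below all N2 arrays. Taken singly, only myo-1 and myo-2 lay apart. The markers tni-4, tnt-4 and tnc-2 overlapped between the genotypes, with fold changes of -0.11, -0.012 and 0.0058. For the 5 body wall muscle markers the sum ran from 11800 to 18327 in the mutant and from 12143 to 18134 in N2. The sums of the other tissues overlapped between the genotypes. Summed intensity of the 8 germline markers ran from 12224 to 22654 in the mutant and from 15351 to 24547 in N2. For the 6 neuron markers it ran from 7214 to 13532 in the mutant, against 8669 to 13885 in N2, with mutant replicate 3 and N2 replicate 1 the highest of their groups, as in the attachment genes. For the 7 sperm markers the range was 1490.2 to 3785 in the mutant and 1419 to 2622 in N2. The 8 intestine markers ran from 35420 to 53674 in the mutant and from 37997 to 51328 in N2, and 5 of 6 listed hypodermis markers from 1981 to 2747 in the mutant and from 2084 to 3424 in N2. The 3 markers of embryo muscle precursors ran from 2549.7 to 4702 in the mutant and from 4027 to 4628 in N2. Most of that sum was pal-1 alone, at 2418 to 4503 in the mutant and 3852 to 4413 in N2. No marker was at 0 on average, the dimmest, of neurons, being at 43.8. The part of other tissues in the sarcomere values was not tested.

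Several genes have more than 1 probe set, and these did not always repeat each other. Of the 24 genes with several, 12 had fold changes of both signs and 12 of 1 sign. The 5 brightest of the 7 lev-11 probe sets were all positive (0.23 to 0.42) and all highest in mutant replicate 2, while the 2 dimmest had -0.12 and -0.34. Tropomyosin is made in several isoforms, and the sources used here do not say which isoform each probe set reads. The 2 brightest ttn-1 probe sets shared the high N2 replicate 1 and the low N2 replicate 2, and the 4 dimmer ones did not show this range. The same held for unc-68, where the 2 brighter of 3 shared it. Of the 2 unc-22 probe sets, only the brighter showed it.

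Only 2 of the 82 probe sets had the mutant arrays apart from the N2 arrays, both with the mutant lower, against 6.69% of all probe sets (4.38% lower). One was a dim probe set of unc-89, at 73.2, 68.9 and 67.7 in the mutant and 102, 121 and 79.1 in N2 (fold change -0.43, SE 0.17, unadjusted limma p 0.045, adjusted 0.999). The brightest unc-89 probe set, given above, had -0.044. The other was a dim ttn-1 probe set at 105.1, 89.6 and 93.6 in the mutant, against 114, 118.8 and 107 in N2 (-0.21, SE 0.14). All 5 unc-89 probe sets were negative, from -0.43 to -0.044. Among the members' further probe sets, one of pat-4 had 0.61 (SE 0.29) and one of dim-1 had 0.51 (SE 0.25), neither past the threshold.

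**Figure D5:**
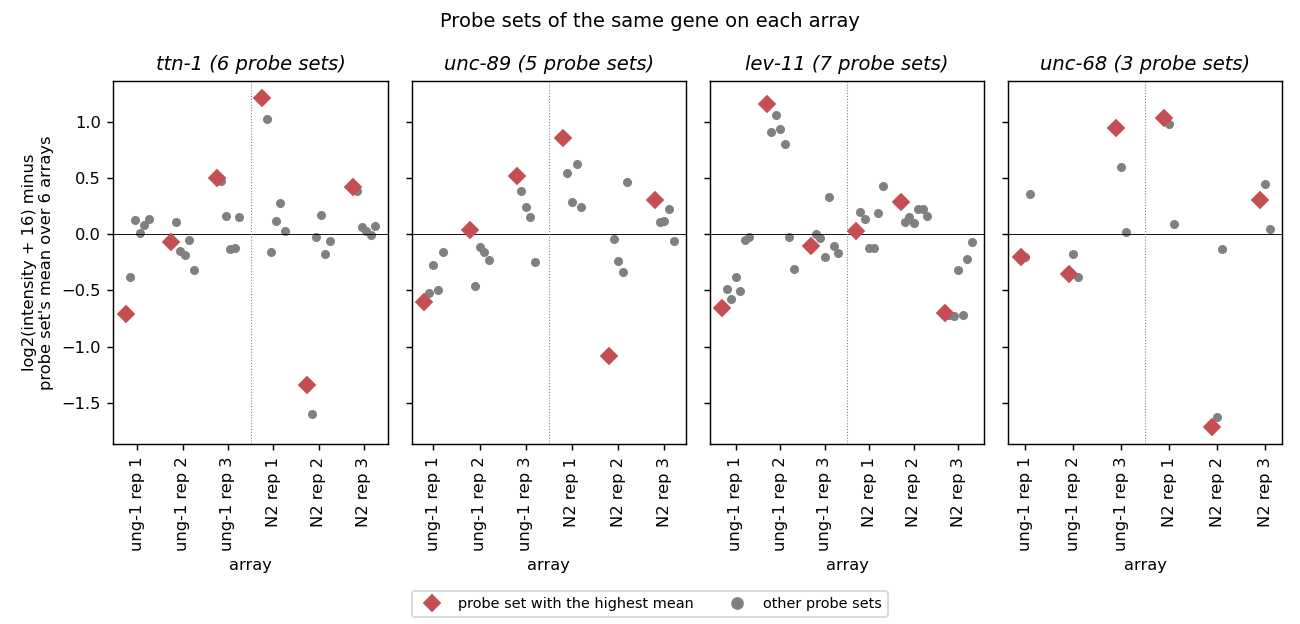
Log2(intensity + 16) minus the probe set's own mean over the 6 arrays (y axis) for every probe set of ttn-1, unc-89, lev-11 and unc-68, with red diamonds for the probe set of highest mean and grey circles for the others. In lev-11 the 5 brightest probe sets peak together in mutant replicate 2, and in ttn-1 and unc-68 the 2 brightest drop together in N2 replicate 2.

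A further 7 lists, of muscle genes and of non-muscle actomyosin, hold no sarcomere gene except unc-60 and were also without a call in limma. In them 2 genes, myo-2 and nmy-1, had an unadjusted limma p under 0.05, where 1.93% of all probe sets did so. The 9 measured pharyngeal and further muscle isoforms had 4 positive and 5 negative fold changes and a median of -0.012. Here the pharyngeal myosin heavy chain genes lay apart between the genotypes, 2 of 9 genes, where 6.41% of all genes did so. The gene myo-2 read 139, 123 and 135 in the mutant, against 183, 234 and 169 in N2 (-0.50, SE 0.17), and myo-1 read 249.8, 224 and 303.2 in the mutant, against 583, 303.5 and 346 in N2 (-0.59, SE 0.26). Neither passed (limma adjusted p 0.999 each), and mutant replicate 3 and N2 replicate 2 of myo-1 were almost equal. The body wall heavy chains did not show this separation, and the difference between pharyngeal and body wall genes was not tested.

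Among 24 further structure genes of body wall muscle, 10 were positive and 14 negative with a median of -0.039, and the tropomodulin gene tmd-2 had the smallest p, at -0.31 (SE 0.18). The 8 measured genes of the dystrophin complex, which links the cytoskeleton to the membrane, had a median of -0.064, with 2 positive and 6 negative. The 16 muscle receptor and channel genes had -0.13, with 5 positive and 11 negative. For the 5 transcription factor genes the median was -0.045, and the muscle regulator unc-120 had 0.074 (SE 0.13). Of the 9 basement membrane genes, 4 were positive and 5 negative (median -0.046). The collagen XVIII gene cle-1 had -0.54 (SE 0.23). The 7 genes of non-muscle actomyosin had a median of -0.0053, and the non-muscle myosin gene nmy-1 had 0.55 (SE 0.21, unadjusted limma p 0.0355), with overlapping arrays. All of these medians lay between -0.13 and 0, beside -0.027 over all probe sets, and no gene in these lists passed limma over all probe sets.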

How the data were processed

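Per the labels' protocols, Trizol was used to isolate total RNA from the 3 mutant and 3 N2 samples, which was biotin-labelled for Affymetrix arrays. The deposited table holds 1 linear intensity per probe set and array. The sources used here do not say how the authors summarised, background-corrected or scaled the intensity values. Of the cells, 1.003% (1361) held day counts of spreadsheet dates and were turned back into the small values those dates stand for, from 1.17 to 31.12. Among the 82 probe sets of the sarcomere genes this touched 3 cells of 1 dim ttn-1 probe set.

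Symbols came from the platform annotation, checked through gene identifiers against RefSeq (WBcel235, 0 changed). Of the probe sets tested, 20766 had 1 symbol, 887 several and 895 none. The 77 control probe sets were left out of the tests. Tests used limma 3.58.1 in R 4.3.3 on log2(intensity + 16), two-sided, with Benjamini-Hochberg adjustment over 22548 probe sets. No further normalization or filter was applied. The fit was tested on simulated data.

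The members and lists were chosen with earlier results of these data known. All members are named, and the rule gives array values for those with the smallest p in each direction and those whose probe sets or near-identical genes disagree. Array values of further members were added after their values were seen, to show the spread between replicates. In each other list up to 3 genes are named, those with the genotypes apart first and then by smallest p. Alternatives were other offsets, filters, scalings, variance models, date handling, probe set choices, a replicate block and leaving out each array. Figures were made with Python 3.11.15 and matplotlib 3.10.9.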

Additional observations from a re-analysis of the deposited data

How the results depend on the processing

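No sarcomere gene passed limma's adjusted p of 0.05 under any of the 19 alternatives, and the lowest adjusted p of a member was 0.669, shared by ttn-1, unc-27, unc-52 and unc-112 with array weights. Over all probe sets, 6 passed when the date cells were kept as deposited, 1 with array weights and 1 when the prior variance followed intensity, and 0 under the other settings (435 at an unadjusted p under 0.05 in the main setting, 430 and 450 with offsets of 1 and 50, 1554 with array weights, 192 among the 15032 brighter probe sets, and 232 to 894 with 1 array left out). The median fold change of the sarcomere genes ran from -0.099 to 0.31 with 1 array left out. The count of sarcomere genes with the genotypes apart was 0 with all 6 arrays under every setting run, and 3 to 4 with 1 array left out, when 11.3% to 22.1% of all probe sets were apart. An alternative chosen after seeing the data left out the array of lowest limma weight in each genotype, mutant replicate 3 and N2 replicate 2. It gave 1197 probe sets at an unadjusted p under 0.05, a median of -0.16 and 13 of 37 genes apart, beside 33.4% of all probe sets. With array weights the median was -0.17. It was 0.12 after averaging the probe sets of a gene and -0.060 after dropping the probe sets open to several transcripts. The latter median covers fewer than the 37 genes. Such probe sets represented 18 of them, and of these only lev-11 and unc-60 had another kind. Over all settings, 85 of 687 fold changes of single genes had their sign turned, and the cause was not tested. The 687 include settings that left every member's fold change as it was. These were the filter that kept the brighter probe sets, the date handling, the intensity trend and the replicate block. Among the other settings the share of turned signs was therefore higher. With date cells set to missing, probe sets left without values in a genotype had no test.

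With an offset of 1, the sign turned to -0.0036 for unc-54. With quantile normalization, the sign turned to -0.044 for unc-54, 0.014 for mlc-2, 0.012 for unc-60 and -0.0078 for unc-97. With median centring, the sign turned to 0.0062 for mlc-2, 0.023 for unc-60 and 0.0067 for deb-1. With array weights, the sign turned to -0.047 for unc-98, 0.34 for unc-60, -0.41 for pat-2, -0.085 for pat-4, -0.19 for pat-6, -0.29 for unc-97, -0.018 for dim-1, -0.73 for unc-68 and -0.35 for egl-19. With the probe sets open to several transcripts dropped, the sign turned to 0.32 for unc-60 and -0.34 for lev-11. For lev-11 this was its dimmest probe set, with a mean of 43.3. With probe sets averaged per gene, the sign turned to 0.12 for mlc-2, 0.00038 for mlc-3, 0.012 for unc-60, 0.12 for unc-112, 0.043 for deb-1 and 0.039 for sgca-1. Without the 2 arrays of lowest weight (mutant replicate 3 and N2 replicate 2), the sign turned to -0.34 for unc-54, -0.49 for myo-3, 0.037 for mlc-2, -0.014 for unc-98, 0.36 for unc-60, -0.67 for pat-2, -0.20 for pat-4, -0.23 for pat-6, -0.32 for unc-97, -0.95 for unc-68 and -0.47 for egl-19. With 1 array left out at a time, 24 genes took both signs. The fold change ran from -0.24 to 0.096 for mlc-2, -0.60 to 0.37 for unc-89, -1.08 to 0.48 for unc-22, -0.91 to 0.37 for ttn-1, -0.36 to 0.12 for tnt-3, -0.53 to 0.37 for deb-1, -0.25 to 0.058 for sgca-1 and -0.48 to 0.64 for unc-54. The range was -0.33 to 0.87 for myo-3, -0.25 to 0.65 for lev-11, -0.070 to 0.53 for mup-2, -0.15 to 0.41 for tnt-2, -0.013 to 0.84 for unc-87, -0.025 to 0.52 for clik-1, -0.27 to 0.027 for mlc-1 and -0.29 to 0.29 for unc-60. It was -0.32 to 0.39 for pat-2, -0.071 to 0.36 for pat-6, -0.19 to 0.22 for unc-97, -0.54 to 0.84 for unc-68, -0.26 to 0.48 for egl-19, -0.18 to 0.051 for mlc-3, -0.13 to 0.41 for pat-4 and -0.037 to 0.32 for pat-10. With the replicate number as a block, the number of probe sets at an unadjusted limma p under 0.05 was 323, against 435 without it. Every replicate number occurs equally in both genotypes, so the block could not alter the members' fold changes, and their median was again 0.025. The numbers did not pair the samples: deviations from the group means correlated at -0.19, 0.090 and 0.10 for replicates 1, 2 and 3, and only replicate 3 correlated best with its own number. The number of arrays, 3 in each genotype, limits every estimate.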
